A study of Homo sapiens with 6 samples.

Results

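JAK kinases, STATs and their feedback regulators form a short relay from the cell surface to the nucleus. A cytokine joins its receptor chains, the Janus kinases (JAKs) bound to those chains phosphorylate the STAT transcription factors, and STAT dimers enter the nucleus and switch on genes. SOCS proteins, themselves induced by STATs, shut the receptor complex down, PIAS proteins restrain STATs in the nucleus, and the kinase PIM1 is made from a STAT-induced gene. In squamous carcinomas of the head and neck the relay is best known for STAT3, which acts downstream of IL-6 type cytokines.

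The genes of this relay followed here are JAK1, JAK2, TYK2, STAT3, STAT5B, STAT6, SOCS2, SOCS3, PIAS3 and PIM1. These 10 genes were taken by name, and all were among the 14959 genes of the deposited table. PIAS3 and PIM1 are neither JAK, STAT nor SOCS genes and stand here as partners of the same pathway. The RNA came from UM-SCC1, an established line from a human squamous cell carcinoma of the head and neck, and all 6 libraries were made from it. Mimics are synthetic RNA duplexes that load into the silencing complex in place of the natural miRNA, and the control mimics stand for an oligo without that sequence. 3 cultures received miR-204-5p mimics and 3 received control mimics, each from an independent experiment as the submitters describe them, and RNA was taken 48 h after transfection. Levels are given as the authors deposited them, in FPKM (fragments mapped to a transcript, scaled to its length in kilobases and to the size of the library), and each comparison sets the miR-204-5p group against the control group. In RNA from whole cultures, fewer cells of a kind and less RNA per cell cannot be told apart.

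The labelled cell type was checked against its markers. All 10 squamous epithelial markers had a mean of at least 1 FPKM, with a summed level of 938 to 1023 FPKM with miR-204-5p mimics and 1048 to 1078 FPKM with control mimics. The markers did not move together: by the test described below, 5 were lower and 4 higher. Of the 4 leukocyte markers PTPRC and CD3E were below 1 FPKM in every library, and the summed level of the list was 15.9 to 18.4 FPKM against 19.8 to 21.8 FPKM, most of it CD14. The 3 endothelial markers in the table stayed below 1 FPKM in every library, and the fibroblast sum of 9.81 to 11.6 FPKM against 8.58 to 9.41 FPKM came mostly from COL1A1. The part of these differences in the results was not tested. Depth was inferred from the smallest step between low values at 13.1 to 16.4 M fragments per library, and Spearman's rho between libraries was 0.9899 to 0.9908 within groups and 0.9733 to 0.9756 between groups.

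The mimic can pair with a transcript through its seed, bases 2 to 8 of the mature miRNA, so the sequence and the stretches of the 10 genes that match it are shown first. The mature miRNA of RefSeq (GRCh38.p14, chr9:70810031-70810052, minus strand) has the seed in capitals. The sites below come from the longest annotated 3′ untranslated region (3′UTR) of each gene in GENCODE 29 on GRCh38, with the matched bases in capitals. An 8mer pairs with the whole seed and has an A opposite base 1, a 7mer-m8 pairs with the whole seed, and a 7mer-A1 pairs with bases 2 to 7 and has that A.
hsa-miR-204-5p: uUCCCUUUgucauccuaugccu
JAK2 8mer, chr9:5127411-5127440, plus strand, exon 25: atttttcacatAAAGGGAAcaaatgtctag
STAT5B 7mer-m8, chr17:42201314-42201342, minus strand, exon 19: aagagaaggacAAAGGGAggagaaagcac
STAT5B 7mer-A1, chr17:42201113-42201141, minus strand, exon 19: attgttggggcAAGGGAAgtcacaagctt
STAT6 7mer-A1, chr12:57096325-57096353, minus strand, exon 22: gcactgactggAAGGGAAgttcaggctct
SOCS3 7mer-A1, chr17:78357829-78357857, minus strand, exon 2: ggggtgacctgAAGGGAAccatcctggta

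These 4 genes were the ones with a match, and JAK1, TYK2, STAT3, SOCS2, PIAS3 and PIM1 had none of the 3 kinds of site. Of all 14664 genes searched, 27.1% held at least 1 site. The JAK2 site lies 631 bases into a 3′UTR of 1392 bases. It is not on the transcript that the table lists for JAK2, which has 2615 bases in 16 exons, no 3′UTR and an end upstream of the site. The sites of STAT5B, STAT6 and SOCS3 are on the listed transcripts.

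Cells with miR-204-5p mimics had less JAK2, STAT3 and STAT6 mRNA and more SOCS3, PIAS3 and PIM1 mRNA than cells with control mimics. JAK1, TYK2, STAT5B and SOCS2 did not pass the test. Called thus were 6 of 10 genes, 3 lower and 3 higher, by limma on log2(FPKM + 1) with a Benjamini-Hochberg adjusted p under 0.05 over the whole table. By the same test 40.8% of all genes were called, 16.8% lower and 23.9% higher, so changed genes were common in this comparison. Among the 11504 genes with a mean of at least 1 FPKM, where all 10 genes lie, 5761 were called. The groups did not overlap in 6 of the 10 genes, against 53.6% of all genes. The median log2 fold change of the 10 genes was 0.04 and that of all genes 0.03, and the median size without sign was 0.26 against 0.18. Genes below a mean of 1 FPKM, whose changes log2(FPKM + 1) understates, enter the values of all genes but not those of the 10.

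**Figure D1:**
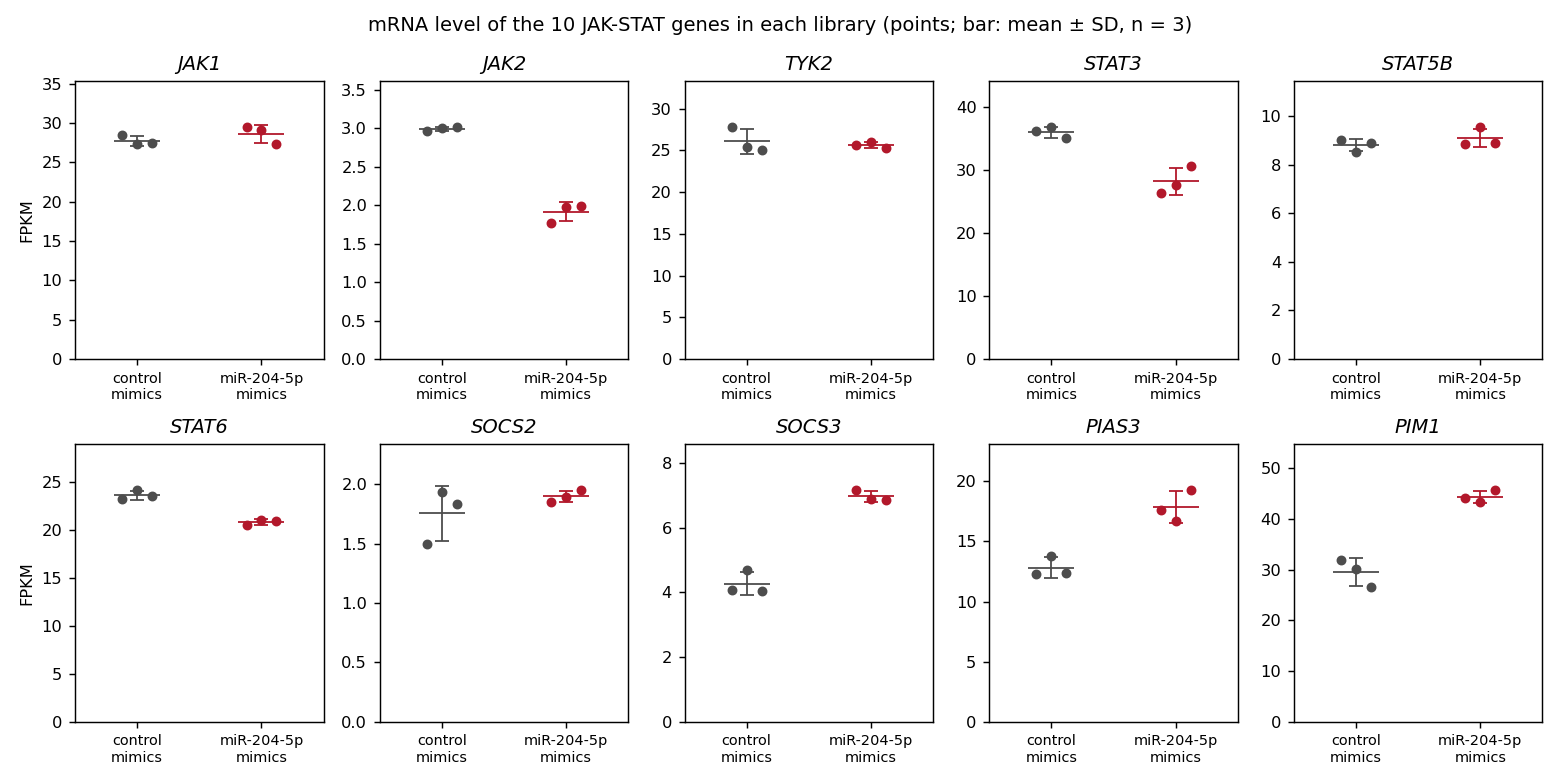
FPKM (y axis, linear and from 0) of each of the 10 genes in the 3 control libraries (grey) and the 3 miR-204-5p libraries (red), with 1 point per library and the mean ± SD. The red points lie below the grey ones for JAK2, STAT3 and STAT6, above them for SOCS3, PIAS3 and PIM1, and overlap them for the other 4 genes.

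Among the kinases, JAK2 is the JAK of the receptors for growth hormone, erythropoietin and, together with JAK1 and TYK2, of gp130. Its gene is listed on chromosome 9 (ENSG00000096968, chr9:4984390-5078444, plus strand). JAK2 stood at 1.77, 1.98 and 1.99 FPKM with miR-204-5p mimics and at 2.97, 3.01 and 3.01 FPKM with control mimics. All 3 mimic libraries were below all 3 controls, which lay close together. The mean fell by 36.1%, from 2.99 ± 0.0245 to 1.91 ± 0.123 FPKM (SD, n = 3). On the log2 scale the change was −0.46 (95% interval −0.60 to −0.31, adjusted p = 0.00151 by limma). JAK2 was the lowest of the 3 JAKs followed. Its values rest on about 60 to 129 fragments per library, as inferred from depth and the 2615 bases of the listed transcript. The longest JAK2 transcript has 5285 bases, so that this count is uncertain. Since log2(FPKM + 1) understates changes of low genes, the change was −0.62 with a pseudocount of 0.1.

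JAK1 (ENSG00000162434, chr1:64833229-64966504, minus strand), which pairs with class II and gp130-type receptor chains, was measured at 29.4, 29.1 and 27.3 FPKM with miR-204-5p mimics and at 28.5, 27.3 and 27.5 FPKM with control mimics. The groups overlapped, and the log2 fold change was 0.04 with a 95% interval of −0.06 to 0.15 (adjusted p = 0.488 by limma). TYK2 (ENSG00000105397, chr19:10350529-10378508, minus strand), the partner kinase at interferon and IL-10 type receptors, was measured at 25.7, 26.0 and 25.3 FPKM with miR-204-5p mimics against 27.8, 25.4 and 25.1 FPKM. Control library 1 was above the other five, which overlapped, and the log2 fold change was −0.02 with an interval of −0.14 to 0.09 (adjusted p = 0.754 by limma). Both intervals leave out changes of the size seen for JAK2.

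JAK3, the lymphoid family member that pairs with the common gamma chain, was measured at 1.10, 1.16 and 1.15 FPKM with miR-204-5p mimics and at 0.310, 0.876 and 0.561 FPKM with control mimics. Its log2 fold change was 0.45 (adjusted p = 0.0283 by limma), and 0.95 (adjusted p = 0.0432) with a pseudocount of 0.1. The call was lost on leaving out control library 3 (adjusted p = 0.0725) or mimic library 1, 2 or 3 (adjusted p = 0.0673, 0.0783 and 0.0736). Per length, JAK1 and TYK2 carried most of the family's mRNA, and the sum over the 4 JAKs was 57.3 ± 1.40 FPKM against 57.4 ± 1.84 FPKM (SD, n = 3), with overlapping libraries. JAK2 made up 3.05%, 3.40% and 3.56% of that sum with miR-204-5p mimics and 4.98%, 5.30% and 5.37% with control mimics. These shares did not overlap, nor did those of JAK3 (exact permutation p = 0.1 for each, two-sided, the smallest that 3 against 3 allow).

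Of the STATs, STAT3 is the main transducer of IL-6 type cytokines. It is listed on chromosome 17 (ENSG00000168610, chr17:42313324-42388568, minus strand, 24 exons). STAT3 stood at 26.4, 27.6 and 30.6 FPKM with miR-204-5p mimics and at 36.2, 36.8 and 35.0 FPKM with control mimics. The lowest control lay above the highest mimic library, and mimic library 3 was the nearest to the controls. The mean fell by 21.7% (log2 fold change −0.34, adjusted p = 0.00457 by limma), and on leaving out 1 of the 6 libraries the log2 fold change ran from −0.40 to −0.30. Its 3′UTR of 2421 bases held no seed match.

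STAT6, the STAT of IL-4 and IL-13, is listed on chromosome 12 (ENSG00000166888, chr12:57095408-57111433, minus strand, 22 exons). It stood at 20.5, 21.1 and 21.0 FPKM with miR-204-5p mimics and at 23.3, 24.2 and 23.6 FPKM with control mimics. The groups were tight and apart. The mean fell by 11.9%, a log2 fold change of −0.17 (standard error 0.0366, adjusted p = 0.0100 by limma), the smallest of the 6 called changes. Over 69 bases the last exon of STAT6 is shared with NAB2 on the other strand, which was also lower (log2 fold change −0.32, adjusted p = 0.00552 by limma), and the library kit is not stated to keep strand. Whether reads of NAB2 entered the STAT6 value was not tested. The annotated span of LRP1, also lower (log2 fold change −0.67), overlaps that of STAT6 by 3647 bases, but the transcripts listed for the pair overlap by 0 bases.

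STAT5B (ENSG00000173757, chr17:42199168-42276406, minus strand), which serves growth hormone and IL-2 type receptors, was measured at 8.87, 9.55 and 8.90 FPKM with miR-204-5p mimics and at 9.02, 8.54 and 8.90 FPKM with control mimics. The groups overlapped, with a log2 fold change of 0.04 and a 95% interval of −0.08 to 0.16 (adjusted p = 0.565 by limma), and its 3′UTR has 2 seed matches. Of the 50-base windows of its transcript, 10.03% also occur in STAT5A, its near copy, so that the split of fragments between the 2 genes is uncertain. STAT5A itself was measured at 4.91, 5.18 and 6.75 FPKM against 4.12, 4.36 and 5.28 FPKM (log2 fold change 0.24, adjusted p = 0.186 by limma, and 0.12 without mimic library 3).

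Of the 4 other genes described in the STAT group, none passed the test, which 40.8% of all genes passed. STAT2, which answers type I interferons, had a log2 fold change of 0.15 (adjusted p = 0.114 by limma) and STAT4, known from IL-12 signalling, 0.01 (adjusted p = 0.917). IRF9, which joins STAT2 in the interferon response, had 6.34, 3.32 and 6.85 FPKM with miR-204-5p mimics and 3.43, 4.24 and 3.35 FPKM with control mimics. Mimic library 2 lay below all controls and the other 2 mimic libraries above them, and without it the log2 fold change of IRF9 went from 0.43 (adjusted p = 0.179 by limma) to 0.71 (adjusted p = 0.00721). The 6 STAT mRNAs described here summed to 82.9 ± 3.99 FPKM against 90.4 ± 1.78 FPKM (SD, n = 3), and the libraries did not overlap. STAT3 made up 39.8% of this sum with control mimics and 34.0% with miR-204-5p mimics, and had the highest level of the 6, per length, in both groups.

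**Figure D2:**
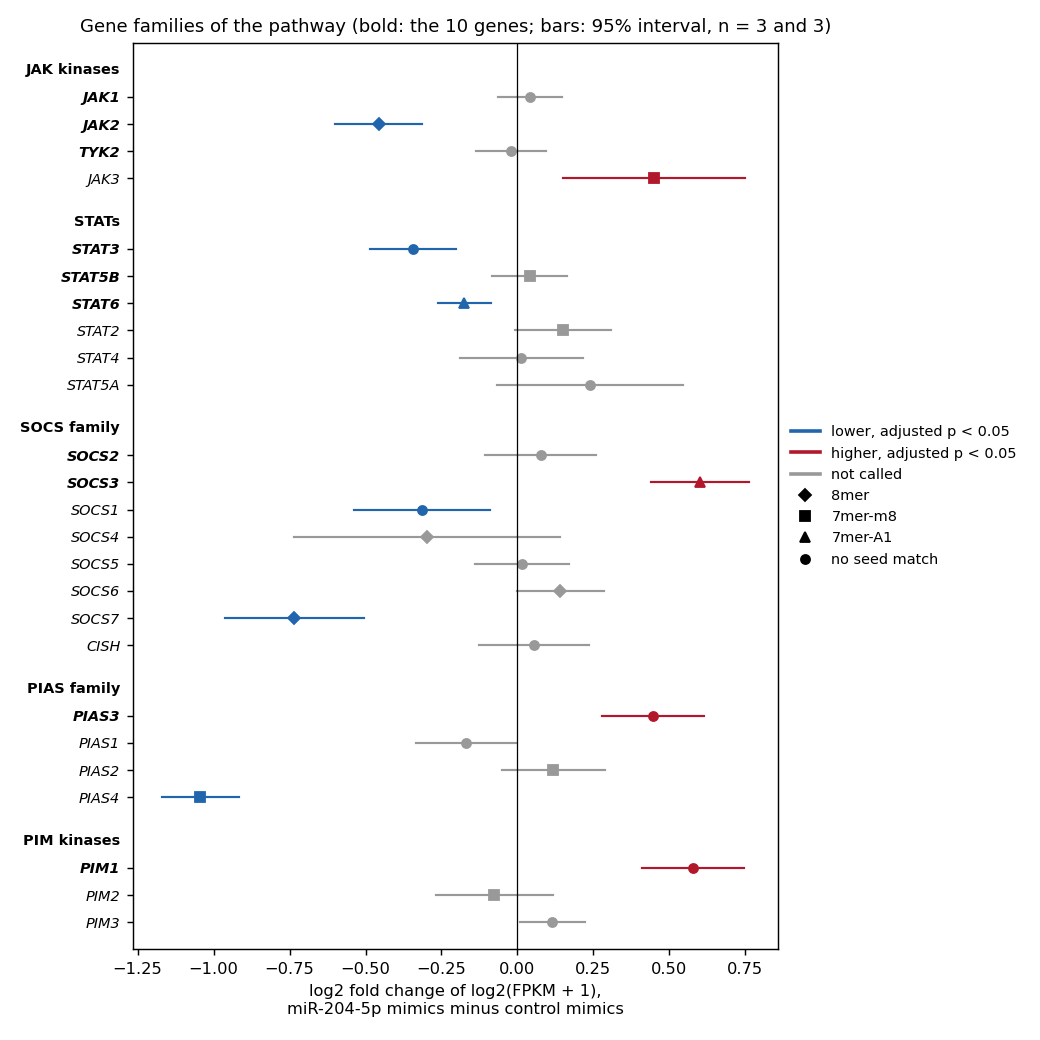
Log2 fold change of log2(FPKM + 1), miR-204-5p mimics minus control mimics (x axis), with 95% intervals for the 10 genes (bold) and their family members, coloured by call and with the marker's shape giving the strongest seed match. JAK2, STAT3 and STAT6 lie left of 0, and SOCS3, PIAS3 and PIM1 lie right of 0, while PIAS4 at −1.04 and SOCS7 at −0.73 lie farthest left.

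Of the 2 SOCS genes followed, SOCS3 rose and SOCS2 was not called. SOCS3, the inhibitor that binds gp130 and JAKs and is induced by STAT3, is listed on chromosome 17 (ENSG00000184557, chr17:78356778-78360077, minus strand, 2 exons). It was measured at 7.16, 6.90 and 6.85 FPKM with miR-204-5p mimics and at 4.06, 4.68 and 4.05 FPKM with control mimics. The mimic libraries were close together and all above the controls. The mean rose by 63.4%, a log2 fold change of 0.60 (95% interval 0.44 to 0.76, adjusted p = 0.000839 by limma), the largest of the 10, and its 3′UTR holds a 7mer-A1 site. The log2 fold change stayed between 0.55 and 0.70 over the 13 alternative processings.

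SOCS2 (ENSG00000120833, chr12:93569814-93576745, plus strand), the inhibitor of growth hormone signalling, was measured at 1.85, 1.89 and 1.95 FPKM with miR-204-5p mimics and at 1.49, 1.94 and 1.83 FPKM with control mimics. The groups overlapped, since control library 2 lay among the mimic libraries. The log2 fold change was 0.08 with a 95% interval of −0.11 to 0.26 (adjusted p = 0.465 by limma), on about 58 to 84 fragments per library.

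Among the 6 other SOCS genes, 2 were called (33.3%, against 40.8% of all genes) and both were lower. SOCS7, whose longest 3′UTR holds an 8mer and a pair of 7mer-m8 sites, was measured at 2.97, 3.71 and 3.94 FPKM against 6.92, 6.27 and 6.38 FPKM (log2 fold change −0.73, adjusted p = 0.00146 by limma). None of these sites is on the transcript listed for SOCS7. SOCS1, the inhibitor of interferon signalling, was measured at 3.68, 3.29 and 3.63 FPKM against 3.98, 4.81 and 5.15 FPKM (log2 fold change −0.31, adjusted p = 0.0362 by limma). The SOCS1 call was lost on leaving out any library but control library 1, with adjusted p from 0.0658 to 0.109. SOCS4 (log2 fold change −0.30), SOCS5 (0.01), SOCS6 (0.14) and CISH (0.05) did not pass the test (limma adjusted p of 0.241, 0.887, 0.107 and 0.607). On leaving out 1 library, SOCS4 ran from −0.47 (without control library 1) to −0.16 (without mimic library 1). SOCS4 and SOCS6 each hold an 8mer.

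The SOCS sum was 32.0 ± 1.59 FPKM against 34.8 ± 3.00 FPKM (SD, n = 3) and overlapped between groups, while its makeup differed. SOCS3 made up 23.7%, 21.4% and 20.5% of the sum with miR-204-5p mimics and 13.0%, 12.8% and 11.1% with control mimics, and SOCS7 18.9% with control mimics and 11.0% with miR-204-5p mimics (means). Neither share overlapped between groups (exact permutation p = 0.1 for each, the smallest possible). The shares of SOCS1, SOCS2, SOCS6 and CISH did not overlap either, and of these only SOCS1 was called. Shares of 1 sum depend on each other, so a lack of overlap does not single out a gene.

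PIAS3, the PIAS protein known to block STAT3 from DNA, is listed on chromosome 1 (ENSG00000131788, chr1:145848522-145859045, minus strand, 15 exons). It was measured at 17.6, 16.7 and 19.3 FPKM with miR-204-5p mimics and at 12.3, 13.8 and 12.4 FPKM with control mimics. Every mimic library was above every control. The mean rose by 39.1%, from 12.8 ± 0.857 to 17.8 ± 1.32 FPKM (SD, n = 3). On the log2 scale the change was 0.45 (95% interval 0.28 to 0.62, adjusted p = 0.00325 by limma). Its exons share 432 bases with NUDT17 on the other strand, which did not pass the test (log2 fold change −0.06, adjusted p = 0.572 by limma).

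PIAS4 moved the other way. This gene, which encodes a SUMO ligase, was measured at 11.4, 10.6 and 10.9 FPKM with miR-204-5p mimics and at 25.1, 23.4 and 22.7 FPKM with control mimics. Its mean fell by 53.7%, a log2 fold change of −1.04 (standard error 0.0523, adjusted p = 6.74e-05 by limma), and its 3′UTR holds the 7mer-m8 site shown here.
PIAS4 7mer-m8, chr19:4039201-4039229, plus strand, exon 11: caggtctaaagAAAGGGAcgtgcatctgg

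The order within the family was exchanged. PIAS4 made up 57.8% of the PIAS sum with control mimics and 33.4% with miR-204-5p mimics, and PIAS3 31.3% and 54.1%. The shares of both genes did not overlap between groups (exact permutation p = 0.1), and neither did that of PIAS2. The sum of the 4 PIAS genes was 33.0 ± 1.55 FPKM against 41.0 ± 1.28 FPKM (SD, n = 3), without overlap. PIAS1 (log2 fold change −0.17, adjusted p = 0.0942 by limma) and PIAS2 (0.12, adjusted p = 0.230) were not called.

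PIM1, the survival kinase, is listed on chromosome 6 (ENSG00000137193, chr6:37170203-37175426, plus strand, 6 exons). It was measured at 44.1, 43.4 and 45.7 FPKM with miR-204-5p mimics and at 32.0, 30.1 and 26.5 FPKM with control mimics. The mimic libraries were tight and all above the controls, of which library 3 was the lowest. The mean rose by 50.4% (log2 fold change 0.58, adjusted p = 0.00118 by limma), and the log2 fold change was 0.50 at its lowest on leaving out 1 library and 0.64 at its highest. In its family, PIM3 had 32.7, 32.3 and 33.8 FPKM against 31.9, 29.6 and 29.5 FPKM (log2 fold change 0.11, adjusted p = 0.0820 by limma, and 0.0429 without control library 1). PIM2 was below 1 FPKM in both groups. PIM1 went from 48.8% to 57.1% of the PIM sum, which was 77.8 ± 1.90 FPKM against 60.5 ± 4.04 FPKM (SD, n = 3).

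**Figure D3:**
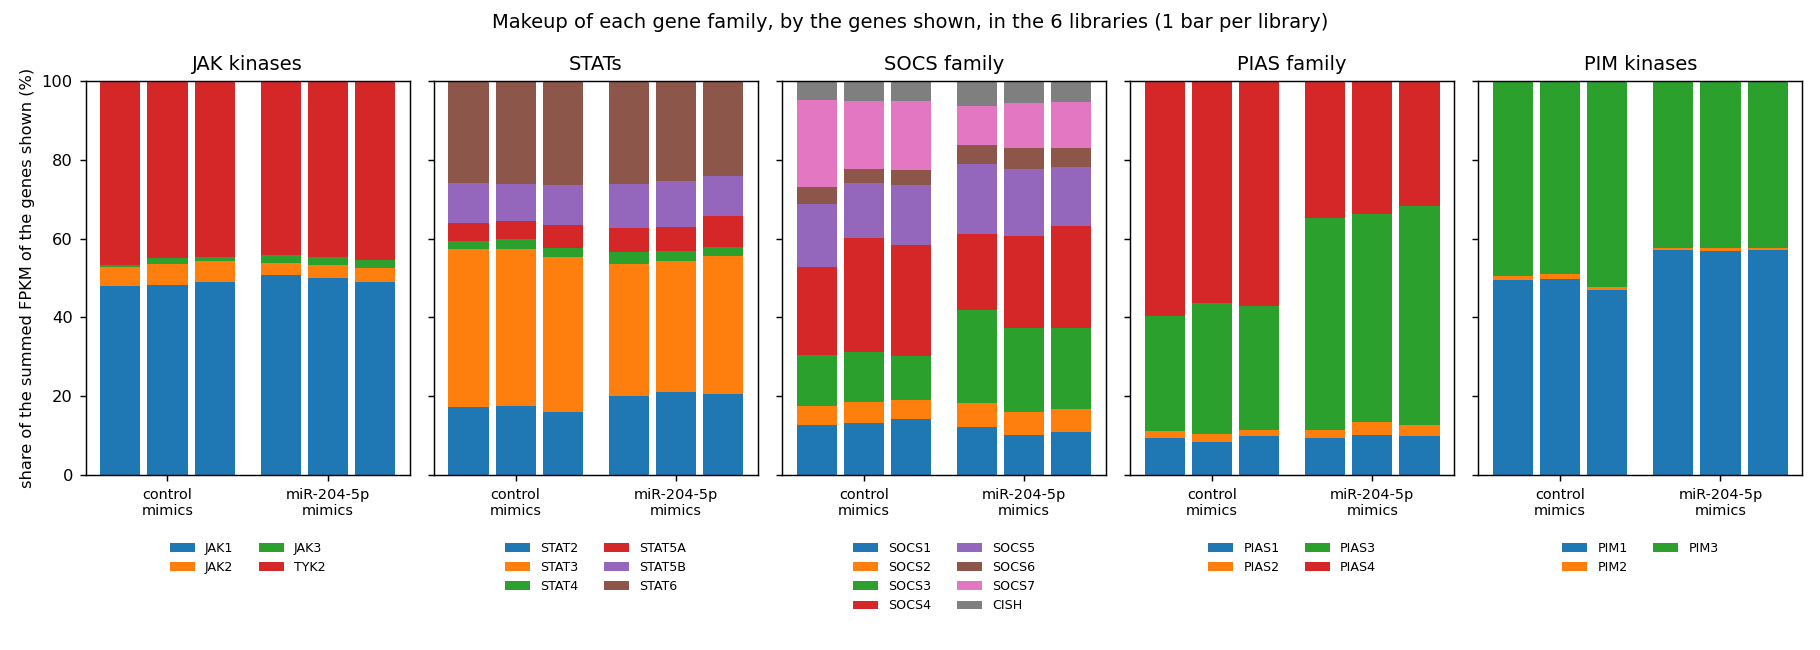
Share of each gene (colour) in the summed FPKM of the genes shown for its family (y axis, percent) in each of the 6 libraries, 1 bar per library. PIAS3 and PIAS4 exchange places between control mimics and miR-204-5p mimics, SOCS3 widens from 12.3% to 21.9% and JAK2 thins from 5.22% to 3.34%.

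Ordered by level per length, the 10 genes changed places at the top. With control mimics STAT3 was highest at 35.0 to 36.8 FPKM, above PIM1, JAK1 and TYK2, and in that order PIM1 overlapped JAK1 and JAK1 overlapped TYK2. With miR-204-5p mimics PIM1 was highest at 43.4 to 45.7 FPKM, and JAK1 and STAT3 followed with overlapping ranges. STAT6, PIAS3, STAT5B and SOCS3 kept the fifth to the eighth place in both groups. JAK2 and SOCS2 were the lowest and overlapped with miR-204-5p mimics but not with control mimics.

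The seed matches and the calls did not line up in 1 way among the 10 genes. Of the 4 genes with a match, JAK2 and STAT6 were lower, SOCS3 was higher and STAT5B was not called. Of the 6 genes without one, STAT3 was lower, PIAS3 and PIM1 were higher and 3 were not called. Over all genes searched, 33.5% of those with an 8mer, 25.5% of those whose strongest site is a 7mer-m8, 22.3% of those with a 7mer-A1 and 13.5% of those with no match were called lower. Called higher were 13.3%, 16.6%, 19.1% and 27.2% in the same order. The STAT motif TTCNNNGAA was read on both strands in the RefSeq window from 250 bases before to 50 bases after the start. It was in 0 of the 9 genes with such a window and in 9.38% of all genes, and 9 genes are too few to tell these apart. With the other pathway genes added it was in 9 of 65 (13.8%). With 4 bases in place of 3 between TTC and GAA the motif was in 0 of 9, in 7.80% of all genes and in 3 of those 65 (4.62%). SOCS2 had no window here.

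Upstream and downstream of the 10 genes, a list of 71 other genes of the pathway was read in the same fit, of which 68 were in the table and GHR, PRLR and OSM were not analysed here. Called were 34 of the 68 (50%, against 40.8% of all genes), 18 lower and 16 higher, with a median log2 fold change of 0.02. With a filter at a mean of 1 FPKM, 31 of 60 were called, against 5761 of 11504 genes, a similar share. Among the 18 receptor chains 8 were lower and 3 higher, and among the 7 ligands 4 were higher and none was lower. Of all genes 16.8% were lower and 23.9% higher. Of the 7 ligands, 3 had means below 1 FPKM in both groups.

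Of the receptor chains of the IL-6 family, whose signal runs through JAKs and STAT3, IL6R, IL6ST and OSMR were lower. IL6R, the IL-6 binding chain, was measured at 4.53, 4.38 and 4.08 FPKM with miR-204-5p mimics and at 11.6, 10.8 and 10.6 FPKM with control mimics (log2 fold change −1.17, adjusted p = 6.98e-05 by limma). IL6ST, which encodes gp130, was measured at 4.50, 4.18 and 4.70 FPKM against 7.73, 6.86 and 8.06 FPKM (log2 fold change −0.65, adjusted p = 0.000974 by limma). The oncostatin M chain OSMR (log2 fold change −0.40) and the leptin receptor LEPR (−0.36) were lower too, and LIFR (0.13) was not called. The longest 3′UTR of IL6R holds an 8mer, and that of IL6ST holds 2 7mer-m8 sites and a 7mer-A1 site, of which 1 7mer-m8 is shown. The transcript listed for IL6R lacks its site, and the one listed for IL6ST has all 3 of its sites within exons. Sites were not confined to lower genes: IL7R, MCL1, PTPN1 and STAM2, all called higher, hold an 8mer in their longest 3′UTR. By the longest 3′UTR, of the 28 other pathway genes with a site 9 were lower and 9 higher, and of the 40 without, 9 were lower and 7 higher. Of all genes searched, 27% of those with a site were lower and 16.4% higher, against 13.5% and 27.2% of those without.
IL6R 8mer, chr1:154467835-154467864, plus strand, exon 10: aaaatgctgttAAAGGGAAatattaagaat
IL6ST 7mer-m8, chr5:55938394-55938422, minus strand, exon 14: cctcatctctgAAAGGGAtaatactgaat

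Of the ligands of that family, IL6, LIF and CTF1 were higher. IL6 was measured at 1.30, 0.908 and 1.11 FPKM with miR-204-5p mimics and at 0.152, 0.0777 and 0.0695 FPKM with control mimics. Since the control values lie near the floor, the size of the change is uncertain. The log2 fold change was 0.93 (adjusted p = 0.00028 by limma), and 2.60 with a pseudocount of 0.1. LIF, which signals through LIFR and gp130, was measured at 11.8, 12.8 and 13.0 FPKM against 8.33, 6.57 and 6.32 FPKM (log2 fold change 0.75, adjusted p = 0.00168 by limma). CTF1, cardiotrophin, had a log2 fold change of 0.80 (adjusted p = 0.0244 by limma), with adjusted p of 0.0654 to 0.0768 without control library 2 or 3 or mimic library 1 or 3. CLCF1 and IL11 were not called (log2 fold changes −0.01 and 0.07). IL24, also called higher, was below 1 FPKM throughout.

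Among the other receptors, IL7R and IL13RA1, which feed STAT5 and STAT6, were higher. IL7R was measured at 4.39, 4.59 and 3.94 FPKM with miR-204-5p mimics and at 0.870, 0.751 and 0.860 FPKM with control mimics. Its log2 fold change was 1.54 (adjusted p = 5.63e-05 by limma). The longest 3′UTR of IL7R holds 2 sites, both 8mers, but its listed transcript has no 3′UTR. IL13RA1 was measured at 22.3, 24.0 and 23.4 FPKM with miR-204-5p mimics and at 11.5, 12.3 and 12.8 FPKM with control mimics (log2 fold change 0.87, adjusted p = 0.000106 by limma). IL4R, the other chain of the IL-13 receptor, was measured at 5.46, 8.75 and 5.40 FPKM against 14.7, 14.3 and 6.95 FPKM and was not called (log2 fold change −0.75, adjusted p = 0.0907 by limma). Control library 3 lay among the mimic libraries for this gene. Among interferon chains IFNAR1 (log2 fold change −0.32) and IFNLR1 (−0.44) were lower. IFNGR2 was higher (0.17) with a limma adjusted p of 0.0490, which rose above the threshold in 10 of 13 alternatives, to 0.123 at most. IL20RB (−0.56) and IL22RA1 (−0.23, adjusted p = 0.0404 and 0.0642 to 0.119 on leaving out any library but mimic library 3) were lower as well.

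Of the 12 phosphatases and adaptors, 8 were called, 4 lower and 4 higher (66.7%, against 40.8% of all genes). The 12 all had a mean of at least 1 FPKM, a range in which 5761 of 11504 genes were called. SOS1, the exchange factor that links receptors to RAS, fell by 34.3% in mean FPKM, and PTPN11, the phosphatase SHP2 that binds gp130, fell by 21.5% (log2 fold changes −0.55 and −0.34). SH2B2 was lower (log2 fold change −0.32), and SH2B3 was lower (−0.17) with a limma adjusted p of 0.0482 that reached 0.0712 to 0.129 without any library but mimic library 3. PTPN1, the phosphatase of JAK2 and TYK2, rose by 22.7%, and the adaptors GRB2, STAM and STAM2 were higher (log2 fold changes 0.20, 0.33 and 0.26). The call of STAM was lost without control library 1 or 2 or mimic library 2 or 3 (adjusted p of 0.0532 to 0.0575), and that of STAM2 without control library 1 (adjusted p = 0.0529). CBL had 2.34 FPKM in control library 3 against 12.1 to 13.8 FPKM in the other 5 libraries and was not called.

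The genes known to be induced by STATs were split. Of 15, 7 were called, 3 lower and 4 higher (46.7%, against 40.8% of all genes). The 15 all had a mean of at least 1 FPKM, a range in which 5761 of 11504 genes were called. JUNB was measured at 72.9, 67.5 and 74.3 FPKM with miR-204-5p mimics against 95.5, 101 and 92.1 FPKM (log2 fold change −0.42), and CDKN1A, the cell cycle inhibitor p21, at 30.8, 26.5 and 28.4 FPKM against 44.3, 41.6 and 40.3 FPKM (−0.54). VEGFA was lower (log2 fold change −0.41), with a limma adjusted p of 0.0265 that reached 0.0571 to 0.0786 without any one of the mimic libraries. IRF1, an interferon-induced transcription factor, was measured at 33.3, 32.4 and 29.8 FPKM against 21.3, 22.9 and 23.7 FPKM (log2 fold change 0.48). CCND1, which drives entry into S phase, was higher (0.46), and so were the survival genes BCL2L1 (0.36) and MCL1 (0.27). MYC varied too widely for a call, with 2.73 FPKM in mimic library 3 and 1.99 FPKM in control library 2 against 17.5 to 39.3 FPKM in the other 4 libraries. BIRC5, at 12.2, 12.3 and 9.37 FPKM against 24.0, 23.7 and 12.3 FPKM, had a limma adjusted p of 0.0621.

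**Figure D4:**
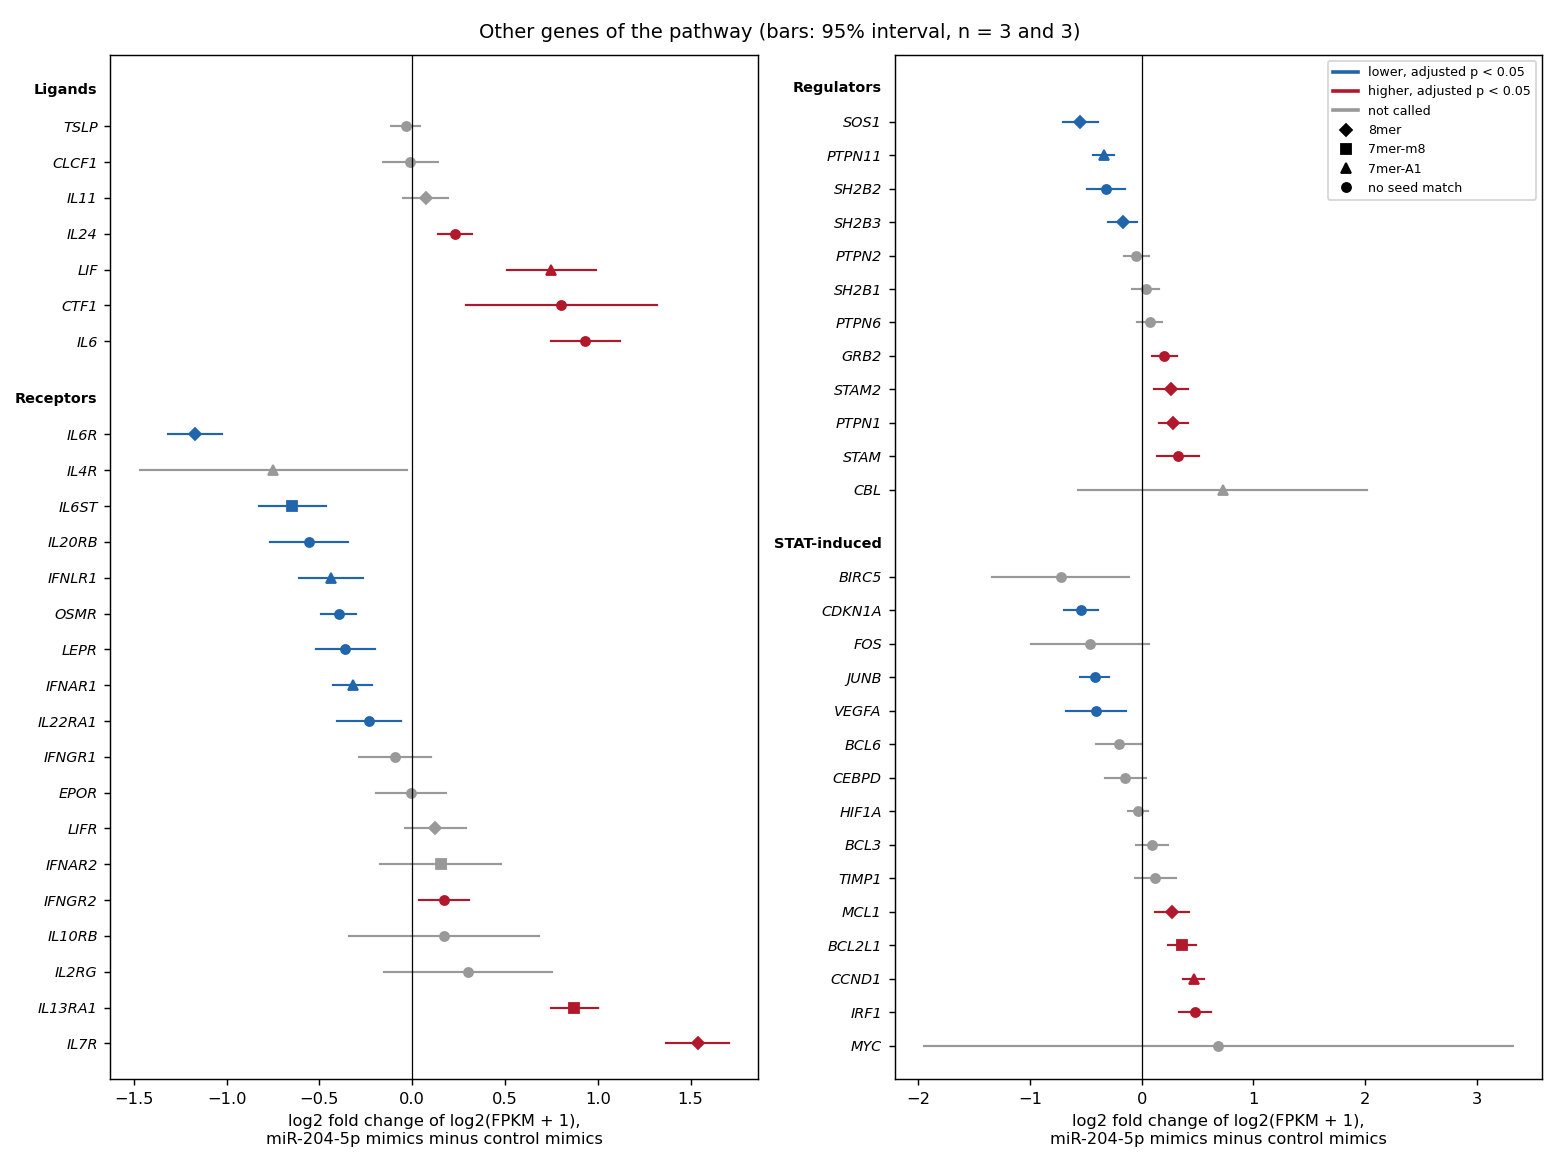
Log2 fold change of log2(FPKM + 1), miR-204-5p mimics minus control mimics (x axis), with 95% intervals for the ligands, receptor chains, regulators and STAT-induced genes of the pathway, coloured by call and shaped by the strongest seed match. The called ligands lie right of 0, IL6R at −1.17 and IL6ST at −0.65 lie left, and IL7R at 1.54 lies farthest right.

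The 6 calls among the 10 genes held under each of the 13 alternatives. The log2 fold change ran from −0.62 to −0.42 for JAK2, from −0.40 to −0.30 for STAT3, from −0.22 to −0.16 for STAT6, from 0.55 to 0.70 for SOCS3, from 0.39 to 0.50 for PIAS3 and from 0.50 to 0.64 for PIM1. The limma adjusted p-value was at most 0.0428, for STAT6. JAK1, TYK2, STAT5B and SOCS2 were called under none.

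**Figure D5:**
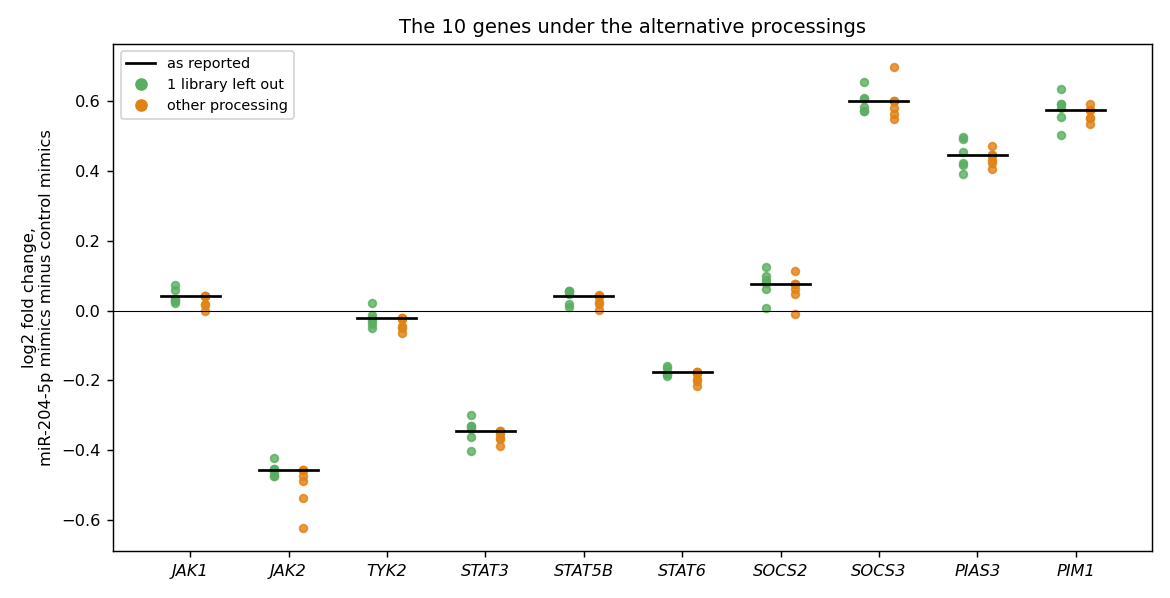
Log2 fold change, miR-204-5p mimics minus control mimics (y axis), of each of the 10 genes as reported (black line), with 1 library left out (green) and with another pseudocount, filter, scaling, block or variance trend (orange). The points of the 6 called genes keep clear of 0, and those of JAK1, TYK2, STAT5B and SOCS2 reach 0.12 at most (SOCS2).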

How the data were processed

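RNA from 6 cultures was sequenced as Illumina TruSeq libraries on a HiSeq X instrument, as the study's methods state. The authors deposited 1 FPKM value per gene and library, with 1 listed transcript per gene. The submitters' processing notes name HISAT2, StringTie and hg38, with versions and settings not given in the sources used here. The authors' own fold changes and edgeR p-values in the same table were not used. Counts are not part of the table and could not be recovered: 21.2% to 26.3% of the low values lay on multiples of a common step (tolerance 0.03), against 5.24% to 5.65% at other steps, which gave the inferred depth.

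log2(FPKM + 1) was tested with limma 3.58.1 (lmFit, eBayes with trend) in R 4.3.3, 3 against 3 libraries, two-sided, with no filter and Benjamini-Hochberg adjustment over 14959 genes at 0.05. The test was also run on simulated data. Shares were compared by exact permutation (scipy 1.17.1), which cannot go below p = 0.1. Sequences came from GENCODE 29 and RefSeq, and no protein sequence was used here. All 10 genes are named, and other pathway genes are named if called or if members of the same families. IL24, IL4R, CBL, MYC, BIRC5, LIFR, CLCF1 and IL11, were named after their values were seen. A gene of the pathway list and a marker are not reported here. The members and lists were chosen with earlier results of these data known. Alternatives were another pseudocount, a filter at a mean of 1 FPKM, 3 scalings, no trend, the replicate number as a block and each library left out.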

Additional observations from a re-analysis of the deposited data

How the results depend on the processing

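Of the values recomputed for the 10 genes, 127 kept their direction and their side of the threshold, and the count of called genes was 6 under all 13 alternatives. The 3 that changed sign were values near 0 that were never called: JAK1 at −0.0009 after scaling to equal sums, TYK2 at 0.0223 without control library 1 (−0.0487 to 0.0223 on leaving out 1 library) and SOCS2 at −0.0090 after quantile normalization. Among the related genes STAT4 changed sign (equal sums −0.0169, equal medians −0.0025, quantile normalization −0.0721, leaving out 1 library −0.0350 to 0.0764), as did SOCS5 (−0.0233, −0.0060 and −0.0397 in the same order, −0.0119 to 0.0543 on leaving out 1 library) and CISH (quantile normalization −0.0320, leaving out 1 library −0.0111 to 0.0886). Among the genes followed individually, SOCS1, SH2B3, STAM2, IL22RA1 and IFNGR2 were no longer called with the replicate block (limma adjusted p of 0.0684, 0.118, 0.0540, 0.0992 and 0.0847), and SOCS4 was (0.0378). The block gave 5096 called genes against 6098, 33 of the other pathway genes against 34 and the same number, 6, of the 10 genes. The count of other pathway genes also holds changes of call in genes that were not followed individually. Same-numbered libraries did not deviate together (correlations −0.040, −0.021 and −0.108), so the numbers were not taken to pair the samples. On leaving out 1 library 4971 to 5371 genes were called in all and 27 to 31 of the other pathway genes. The split over all genes moved from 2520 lower and 3578 higher to 2885 and 3080 with equal sums and to 3026 and 3043 with quantile normalization. PIAS1 was called after quantile normalization (−0.25). Scalings moved the median over all genes by at most −0.0319. Restricted to the 3′UTRs of the listed transcripts, 3 of the 10 genes held a seed match in place of 4. The cause of these changes was not tested. Without counts, depth limits JAK2 and SOCS2 most, going by the fragments inferred from the length of the listed transcripts.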
